A study of Mus musculus with 16 samples.

Results

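Broad SP8-only peaks are stretches of open chromatin that were called in CD8 single positive thymocytes and shared no base pair with any peak called at the DN, DP or SP4 stage. They were chosen by this absence of overlap and by a width of at least 200 bp, so neither is a finding. The SP8 list held 104411 peaks on the 19 autosomes, of which 7831 (7.5%) shared no base pair with a peak of another stage, and 1024 of these were 200 bp or wider. Among the 62593 SP8 peaks of at least 200 bp the 1024 made up 1.64%. The same rule gave 2080 broad SP4-only peaks (3.2% of the SP4 peaks of that width), 1210 broad DP-only peaks (2.02%) and 12209 broad DN-only peaks (14.1%).

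Thymocytes pass from a CD4- CD8- double negative (DN) stage through a CD4+ CD8+ double positive (DP) stage to the CD4 (SP4) or CD8 (SP8) single positive stages. In ATAC-seq, a transposase cuts accessible DNA, and the cuts pile up into peaks. DN, DP, SP4 and SP8 cells were sorted from the thymus of 4 wild type C57BL/6J mice at 9 weeks of age, which gave 16 libraries. Cells of all 4 stages were sorted as lineage-negative (a cocktail that included NK1.1 and the gamma delta T cell receptor). SP8 cells were CD4-, CD8+ and CD3+. SP4 cells were CD4+, CD8- and CD3+, DP cells CD4+ and CD8+, and DN cells CD4-, CD8- and CD3-. The reads of the 4 mice were pooled before peaks were called, so each stage has a single list, no value has an error between mice, and comparisons are between lists. The depth of each library is not part of the lists.

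As background, thymocytes whose receptor recognises MHC class I are directed to the CD8 lineage. The factor RUNX3 silences *Cd4*, keeps *Cd8a* and *Cd8b1* on and prepares the cytotoxic program, for which *Eomes*, *Xcl1* and the *Klr* receptor genes are examples. Regulatory elements that are used by a single cell type typically lie away from promoters, within introns or between genes.

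The label of the SP8 list was checked at transcription start sites (TSSs). *Cd8a* had a peak over a TSS with a fold enrichment of 10.2 in SP8, 3.74 in SP4, 6.17 in DP and 8.89 in DN. At *Cd8b1* the fold enrichments were 21.5, 16.7, 15.1 and 22.2 in the same order, and *Runx3* and *Cd3e* also had a TSS peak at every stage. Of 10 B cell marker genes 6 had a TSS peak in SP8, of 10 myeloid genes 3, of 10 natural killer and innate lymphoid genes 5, of 9 gamma delta T cell genes 3, of 10 thymic epithelial genes 5, and of 10 neuronal genes, taken as a control, 4. Within the SP8 list a TSS peak therefore did not separate cell types. Between lists, *Cd8a* was lowest in SP4, and some marker genes of other cells had a TSS peak in DN alone. Examples are *Pax5* (fold enrichment 16.6), *Lyz2* (15.2), *Mpo* (3.59) and the neuronal gene *Syt1* (5.10). Of the 10 myeloid genes 6 had a TSS peak in DN. Of the genes that define B and myeloid cells, *Cd79a*, *Pax5*, *Ms4a1*, *Lyz2*, *Csf1r*, *Cd14* and *Mpo* were among those with no TSS peak in SP8, while *Ebf1* (fold enrichment 7.97), *Vpreb1* (21.1), *Cr2* (35.8), *Itgam* (19.7) and *Cebpa* (16.6) had one.

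The peaks themselves were modest in height. Fold enrichment at the summit, the pile-up divided by the local background, had a median of 4.38 among the 1024 peaks (quartiles 3.49 and 6.00, highest 21.98), against 6.11 among all SP8 peaks and 11.0 among SP8 peaks of the same minimum width that were called at every stage. Their median −log10 q was 10.7, and their median width was 249 bp with a widest peak of 687 bp. Within the SP8 list their fold enrichment stood at a median percentile of 31.8, and 30 of 1024 (2.93%) lay above the 75th percentile. Broad DP-only peaks were of like height (median 4.44), and broad SP4-only (5.23) and DN-only peaks (5.95) were higher within their own lists.

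Fold enrichment changed little at the edges of the rule. The 158 SP8-only peaks less than 10 bp over the minimum width had a median fold enrichment of 4.04, and the 190 that missed it by up to 10 bp had 3.90. The 11 members within 49 bp of a peak of another stage had a median of 3.31, and the 41 SP8 peaks that shared 1 to 50 bp with such a peak, and were left out, had 3.43. Their median TSS distances were 6630 and 4237 bp, and 9.09% and 4.88% were at a promoter.

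The DNA under the strongest members is printed here because these peaks carry the highest −log10 q among the 1024 or lie nearest to genes of the CD8 lineage. Each line gives 200 bp centred on the summit in mm10. Capitals mark exact matches to 18 consensus sequences of factors known from T cells, which are listed further on. The highest 4 by −log10 q are first.
Elk3, chr10:93272193-93272392, + strand: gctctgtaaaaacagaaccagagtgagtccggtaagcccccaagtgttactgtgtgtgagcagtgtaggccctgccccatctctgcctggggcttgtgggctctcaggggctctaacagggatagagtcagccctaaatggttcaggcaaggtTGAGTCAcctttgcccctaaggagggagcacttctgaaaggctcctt
Rftn1, chr17:50157874-50158073, + strand: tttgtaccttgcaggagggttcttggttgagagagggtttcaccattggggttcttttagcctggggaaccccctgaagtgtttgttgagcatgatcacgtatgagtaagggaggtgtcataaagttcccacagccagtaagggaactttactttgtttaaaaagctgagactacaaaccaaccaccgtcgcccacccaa
Btg2, chr1:134070738-134070937, + strand: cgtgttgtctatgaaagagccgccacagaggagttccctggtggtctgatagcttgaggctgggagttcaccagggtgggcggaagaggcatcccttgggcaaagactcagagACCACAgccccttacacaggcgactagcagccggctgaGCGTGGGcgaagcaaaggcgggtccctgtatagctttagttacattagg
Gtf2i, chr5:134253268-134253467, + strand: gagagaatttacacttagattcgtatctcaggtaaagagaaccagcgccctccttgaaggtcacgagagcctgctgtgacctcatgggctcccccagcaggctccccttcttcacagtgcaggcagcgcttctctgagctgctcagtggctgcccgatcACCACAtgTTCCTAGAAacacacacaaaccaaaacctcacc
The strongest 4 with a nearest gene on the CD8 and cytotoxic list follow.
Cd8b1, chr6:71343063-71343262, + strand: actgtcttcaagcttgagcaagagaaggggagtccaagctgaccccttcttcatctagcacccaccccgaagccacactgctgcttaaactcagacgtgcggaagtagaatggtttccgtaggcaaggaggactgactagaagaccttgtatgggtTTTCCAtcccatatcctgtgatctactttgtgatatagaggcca
Runx3, chr4:135114574-135114773, + strand: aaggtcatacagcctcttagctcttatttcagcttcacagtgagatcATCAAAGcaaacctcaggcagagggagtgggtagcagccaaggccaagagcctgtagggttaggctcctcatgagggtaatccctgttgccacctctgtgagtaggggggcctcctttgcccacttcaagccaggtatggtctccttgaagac
Slamf7, chr1:171629275-171629474, + strand: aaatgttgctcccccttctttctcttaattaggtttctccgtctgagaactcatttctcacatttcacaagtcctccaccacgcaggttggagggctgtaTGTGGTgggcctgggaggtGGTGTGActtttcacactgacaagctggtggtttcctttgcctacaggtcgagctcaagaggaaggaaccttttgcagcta
Xcl1, chr1:165035764-165035963, + strand: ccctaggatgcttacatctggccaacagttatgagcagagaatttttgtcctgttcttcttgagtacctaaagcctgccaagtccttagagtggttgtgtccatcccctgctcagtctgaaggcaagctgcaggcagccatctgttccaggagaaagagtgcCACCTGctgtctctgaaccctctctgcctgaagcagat
The capitals stand for an AP-1 match at *Elk3*, a RUNX and an EGR match at *Btg2*, a RUNX and a STAT match at *Gtf2i*, an NFAT match at *Cd8b1*, a TCF7/LEF1 match at *Runx3*, a RUNX and a T-box match at *Slamf7* and an E-box match at *Xcl1*. The window in *Rftn1* held none of the 18.

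The 12 members with the highest −log10 q ran from 93.1 to 168. None of the 12 was at a promoter, 8 lay in introns, 3 between genes and 1 in an exon. The highest was an intronic peak of *Elk3*, an ETS-family transcription factor gene, at chr10:93272186-93272599, with a fold enrichment of 8.79 and a −log10 q of 168. *Rftn1*, which encodes a lipid raft protein of lymphocytes, followed with an intronic peak at chr17:50157845-50158293 (fold enrichment 8.48, −log10 q 135). Peaks of the DN, DP and SP4 lists lay 242, 242 and 250 bp from the *Rftn1* member. A peak 8.13 kb from the TSS of *Btg2*, an antiproliferative gene, reached a fold enrichment of 11.5 and a −log10 q of 129. The others were nearest to *Gtf2i*, *Lrrc3b*, *Tgfbr3*, *Zyg11b*, *Rnf13*, *Cd320*, *Rnf144a*, *Cdc14a* and *Zfhx3*. *Tgfbr3* encodes a co-receptor for TGF-beta, and its peak lay in an intron 75.9 kb from the TSS with a fold enrichment of 12.03.

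Height and q-value gave different orders. The highest fold enrichments were at *Rnf13* (21.98, intron), *Lrrc3b* (21.97, 358 kb from its TSS) and *Rnf144a* (21.6, 502 kb from its TSS), while 4 of the 12 members with the highest −log10 q, at *Elk3*, *Rftn1*, *Zyg11b* and *Zfhx3*, had a fold enrichment below 9. Among members with a fold enrichment from 6 to 9, the −log10 q had a median of 22.3 and reached 168.

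**Figure D1:**
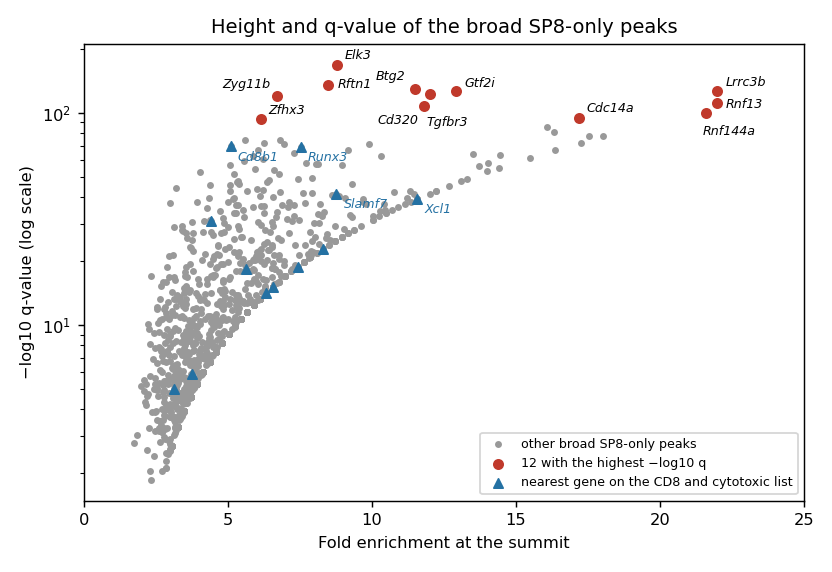
Fold enrichment at the summit (x axis) against the −log10 q-value (y axis, log scale) of each of the 1024 broad SP8-only peaks, with the 12 highest by −log10 q and the 12 whose nearest gene is on the CD8 and cytotoxic list marked. *Elk3* has the highest −log10 q (168) at a fold enrichment of 8.79, and *Rnf13*, *Lrrc3b* and *Rnf144a* stand apart at fold enrichments from 21.6 to 21.98.

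The widest 3 members measured 687, 657 and 643 bp, with *Fam208a*, *Egln3* and *Agfg1* as their nearest protein-coding genes and fold enrichments of 8.12, 6.94 and 9.89. None of them lay inside a protein-coding gene.

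The broad SP8-only peaks were mostly away from genes' starts. The median distance to the nearest TSS of any transcript was 6959 bp (quartiles 2210 and 15105 bp), and to the nearest protein-coding TSS 16752 bp. Of the 1024 peaks 565 (55.2%, 95% Wilson interval 52.1 to 58.2) were intronic, 299 (29.2%, 26.5 to 32.1) intergenic, 111 (10.8%, 9.08 to 12.9) at an exon without a promoter and 49 (4.79%, 3.64 to 6.27) at a promoter, taken as the 200 bp upstream of a TSS. Wilson intervals here cover counting error only. The share at a promoter was 17.2% of all SP8 peaks and 28.2% of broad SP8 peaks called at every stage, but 3.41% of broad SP4-only, 5.29% of broad DP-only and 7.83% of broad DN-only peaks.

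Distances were compared between lists with two-sided Kolmogorov-Smirnov tests and Bonferroni correction over 5 pairs. Broad SP8-only peaks lay farther from a TSS than broad SP8 peaks called at every stage (n = 1024 and n = 51539, median 6959 against 2675 bp, statistic 0.254, adjusted p = 6.78e-57), and the median was farther on 19 of 19 chromosomes. They lay nearer to a TSS than broad SP4-only peaks (n = 2080, 8344 bp, statistic 0.0728, adjusted p = 0.00653), on 13 of 19 chromosomes. That difference was lost when only the 557 members with no peak of another stage within 1 kb were kept (n = 557, statistic 0.0321, adjusted p = 1). The SP4-only list was not filtered in this way, so only the members' distances changed (median 7912 bp). The differences from narrower SP8-only peaks (n = 6807, 6307 bp, adjusted p = 0.701), broad DP-only peaks (7282 bp, adjusted p = 1) and broad DN-only peaks (6485 bp, adjusted p = 0.0734) did not pass the threshold of 0.05.

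To protein-coding TSSs alone, the members were nearer than broad SP4-only (n = 1024 and n = 2080, 16752 against 22738 bp, adjusted p = 5.13e-07), broad DP-only (21208 bp, adjusted p = 0.000222) and broad DN-only peaks (19086 bp, adjusted p = 7.56e-05), on 15, 12 and 15 of 19 chromosomes. For the DN-only list the order of the medians thus turned with the choice of transcripts, but the distances of the lists crossed. DN-only peaks were more often over a protein-coding TSS (4.23% against 2.34% of members). They were also more often over 100 kb from one (14.2% against 11.6%). These p-values compare lists of peaks, which are not replicates, and do not speak of mice.

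**Figure D2:**
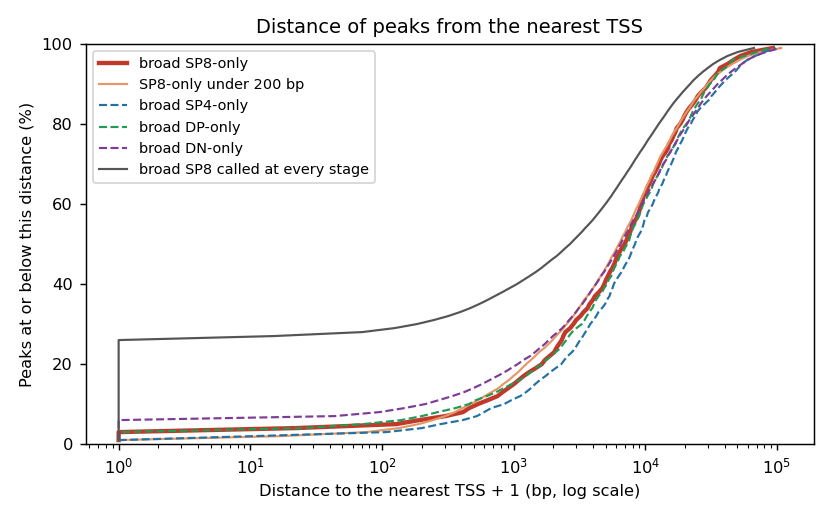
Cumulative share of peaks (y axis, %) by distance to the nearest TSS plus 1 bp (x axis, log scale) for broad SP8-only peaks and 5 other classes. Broad SP8 peaks called at every stage lie to the left (median 2675 bp, 26.7% over a TSS), and broad SP8-only peaks (median 6959 bp, 3.71% over a TSS) run close to the other single-stage classes.

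Of the 1024 members 24 (2.34%) covered a protein-coding TSS, against 12.5% of all SP8 peaks. The share was 0.721% of broad SP4-only, 2.07% of broad DP-only and 4.23% of broad DN-only peaks. The highest fold enrichments among the 24 members were at *Tnfrsf9*, *Rmnd5a*, *Celf5*, *Ggt1* and a RefSeq transcript within *Gfra1*. *Tnfrsf9* encodes the costimulatory receptor 4-1BB, and its member at chr4:150924932-150925317 had a fold enrichment of 6.03 and a −log10 q of 66.6. Peaks of the DN, SP4 and DP lists lay 198, 211 and 219 bp from it. The fold enrichments of the other 4 lay between 5.08 and 6.00. At the other end, 119 members (11.6%) were over 100 kb from a protein-coding TSS, against 8.38% of all SP8 peaks. The share was 15.6% of broad SP4-only, 14.6% of broad DP-only and 14.2% of broad DN-only peaks. The 2 members farthest from a TSS of any kind were in introns of *Wwox*, 223 kb and 180 kb away. Their nearest protein-coding TSS was that of *Maf*, a factor of T helper cells, at 431 and 474 kb. Of all members, 600 (58.6%) had their summit downstream of the nearest protein-coding TSS, against 56.0% of all SP8 peaks.

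The members often stood beside chromatin that was open at other stages. By the rule none touched a peak of another stage, but 467 (45.6%, 42.6 to 48.7) had one within 1 kb and 62 (6.05%) within 100 bp, with a median of 1186 bp to the nearest. The nearest peak was of the SP4 list for 431 members, of the DN list for 414 and of the DP list for 179. Within 1 kb, 38.1% had an SP4 peak, 36.8% a DN peak and 29.6% a DP peak, from lists of unequal size. A peak of another stage within 1 kb was found for 52.9% of narrower SP8-only peaks, 41.4% of broad DP-only, 30.7% of broad SP4-only and 21.7% of broad DN-only peaks.

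The 557 members farther than 1 kb had a median fold enrichment of 5.02 and a median TSS distance of 7912 bp, against 3.81 and 5380 bp for the 467 nearer ones. Isolated members thus had the higher peaks and lay farther from TSSs. In total, 72 members (7.03%) were over 10 kb from any peak of another stage. Examples with high values are the intronic *Rnf13* peak, 11.96 kb from the nearest, and the peaks near *Klrk1* (18.8 kb) and *Eomes* (14.1 kb).

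Members were found on each of the 19 autosomes, in numbers that followed the SP8 peaks. There were 9.81 per 1000 SP8 peaks over the 19 chromosomes, with the lowest rate on chromosome 7 (48 members, 7.57 per 1000) and the highest on chromosome 17 (67 members, 12.8 per 1000). The Wilson interval of chromosome 17 alone lay above that rate (10.1 to 16.2), and none lay below it. By length the range was wider, from 0.272 per Mb on chromosome 14 to 0.705 per Mb on chromosome 17.

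**Figure D3:**
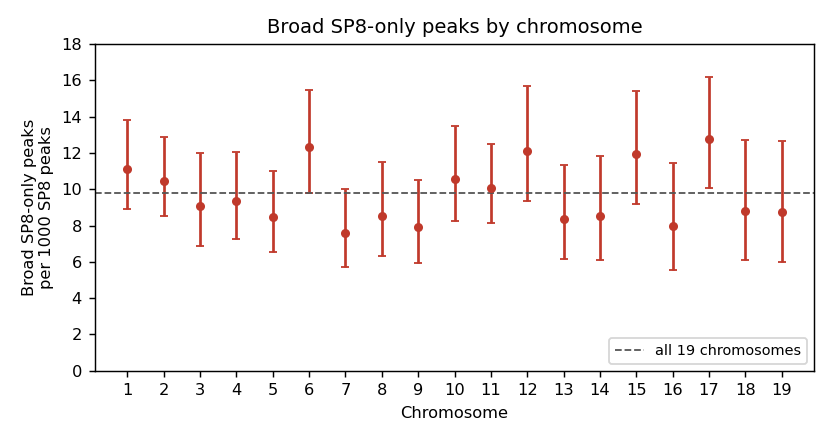
Broad SP8-only peaks per 1000 SP8 peaks (y axis) on each chromosome (x axis), with 95% Wilson intervals. The rates run from 7.57 on chromosome 7 to 12.8 on chromosome 17, around 9.81 for all chromosomes (dashed line).

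Along the chromosomes the members were sparse and only in part clustered. The gap to the next member had a median of 883 kb and a mean of 2288 kb, a ratio of 0.386. Of the 1024 members 225 (21.97%, 19.5 to 24.6) had another within 50 kb, 88 (8.59%) within 10 kb and 348 (34.0%) within 100 kb. Broad DP-only peaks, a list of similar size, had 21.9% within 50 kb and a ratio of 0.335, and broad SP4-only peaks 26.5% and 0.341. All SP8 peaks had a ratio of 0.219.

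When members no more than 50 kb apart were chained, 799 stood alone, 91 pairs formed, and 13 runs held 3 to 5 members. The runs of 3 or more took in 4.20% of the members, against 4.05% of broad DP-only and 6.15% of broad SP4-only peaks. Chains depend on list size, so the share in the DP-only list is the closest comparison.

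The run with the most members was in *Rapgef1*, which encodes an exchange factor of the small GTPase Rap1. Its 5 members spanned 69.7 kb of the gene (chr2:29624917-29694621), all in introns, with fold enrichments from 3.09 to 7.48, and 28 other SP8 peaks lay between them. *Peli1*, the gene of an E3 ubiquitin ligase that acts downstream of receptors in lymphocytes, held 4 members over 41.7 kb (fold enrichments 2.92 to 6.25). Among these were members 70.4% and 81.5% repeat-masked in the reference. The 4 members at *Cd226*, which encodes the activating receptor DNAM-1 of T and NK cells, spanned 51.8 kb and were low, at 2.32 to 4.50.

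The next runs held 3 members each. Near *Acap2* they lay within 13.95 kb, and upstream of *Myc*, in introns of the non-coding gene *D030024E09Rik*, within 18.4 kb. In both, the 3 SP8 peaks of the stretch were all members, and 1 SP4-only peak lay in the *Myc* stretch. The *Myc* run, 316 to 334 kb upstream of the *Myc* TSS, was the higher of these, with fold enrichments from 7.20 to 11.6. The *Rnf144a* run covered 40.4 kb and held the member with a fold enrichment of 21.6.

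**Figure D4:**
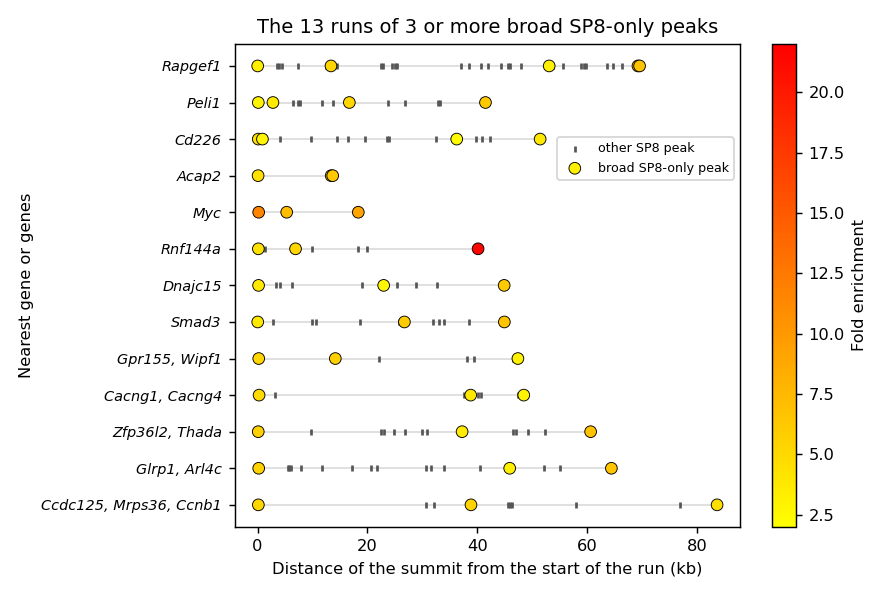
Summits of the members (circles, coloured by fold enrichment) and of other SP8 peaks (bars) along the 13 runs of 3 or more members, in kb from the start of each run. The *Rapgef1* run holds 5 members among 28 other SP8 peaks, whereas the *Acap2* and *Myc* runs hold no other SP8 peak.

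The 1024 members were assigned to 864 nearest protein-coding genes, of which 128 had 2 or more and 24 had 3 or more. *Myc* and *Rapgef1* had 5 each, and *Bcat1*, *Peli1*, *Tle4* and *Cd226* 4 each. Ordered by the summed −log10 q, *Rnf144a*, *Runx3*, *Smad3*, *Trib2*, *Bcl2l11* and *Xcl1* came next with 3 each. These counts stand beside all SP8 peaks of the same genes: 5 of 88 at *Myc*, 5 of 48 at *Rapgef1*, 4 of 32 at *Tle4* and 3 of 25 at *Xcl1*. The genes were named for their number of members, and over all SP8 peaks the rate was 9.81 per 1000. The 1210 broad DP-only peaks, a list of similar size, were assigned to 1000 genes.

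The genes differed in what surrounded the members. At *Myc*, the proliferation and growth factor gene, 26 SP4-only peaks of any width were assigned to the gene beside the 5 members and 6 narrower SP8-only peaks. At *Trib2*, which encodes a pseudokinase, 20 SP4-only peaks stood beside 3 members. *Cd226* had 18 narrower SP8-only peaks, 3 SP4-only, 2 DP-only and no DN-only peaks. *Runx3* had 13 narrower SP8-only peaks, 1 SP4-only, 2 DP-only and 12 DN-only peaks. *Xcl1* had 1 narrower SP8-only and 1 DN-only peak and none of the SP4 or DP lists alone.

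Members of *Smad3*, the signal transducer of TGF-beta, lay in the gene, 2648, 17985 and 21406 bp from its nearest TSS, with fold enrichments of 6.06, 6.61 and 3.78. At *Bcl2l11*, which encodes the pro-death protein BIM, 1 member was inside the gene (fold enrichment 3.14) and 2 lay upstream within *Acoxl* (7.70 and 4.05). *Tle4*, a co-repressor gene, had 4 members from 86.0 to 245 kb from its TSS, the highest at 6.55. The lowest, at 3.06, was 96.9% repeat-masked.

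Nearest genes were shared in part with the other single-stage lists. Of the 864 genes 218 (25.2%) were also nearest to a broad SP4-only peak, which was 13.7% of the 1596 genes of that list. For broad DP-only peaks 142 were shared, 16.4% of the members' genes and 14.2% of the DP-only genes. For the longer list of broad DN-only peaks 445 were shared, 51.5% of the members' genes and 7.13% of the 6245 DN-only genes. These overlaps depend on list size, and no share over all genes nearest to an SP8 peak is given beside them. They are therefore counts and do not tell more sharing from less.

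Genes of the CD8 and cytotoxic lineage were the nearest gene of 12 members (1.17%, 0.672 to 2.04). Those 12 belonged to 7 of the 23 list genes on the autosomes: *Runx3* and *Xcl1* with 3 each, *Slamf7* with 2, and *Cd8b1*, *Eomes*, *Klrk1* and *Klrc1* with 1 each. The list was nearest to 0.297% of all SP8 peaks and 0.328% of SP8 peaks of at least 200 bp. It was nearest to 0.353% of narrower SP8-only peaks (24 of 6807), 0.0481% of broad SP4-only (1 of 2080), 0.248% of broad DP-only (3 of 1210) and 0.147% of broad DN-only peaks (18 of 12209). No set test was run, and the list was chosen with earlier results of these data known.

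*Cd8b1* encodes the beta chain of the CD8 co-receptor. Its member, printed above, was at chr6:71342791-71343273, between genes, 20003 bp downstream of the TSS, with a fold enrichment of 5.09 and a −log10 q of 69.6. The nearest peak of another stage was 1.09 kb away.

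At *Runx3*, the CD8 lineage factor, the strongest member lay 5.78 kb upstream of the nearest TSS (chr4:135114425-135114873, fold enrichment 7.53, −log10 q 69.2). The other two lay 47.6 kb upstream (fold enrichment 4.42) and 37.2 kb downstream of the nearest TSS (3.74), and all 3 were outside the gene. Each of the 3 had a peak of another stage 609 to 676 bp away. *Eomes*, a T-box factor of cytotoxic cells, had a member 161 kb upstream with a fold enrichment of 8.29.

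The chemokine gene *Xcl1* had its 3 members upstream, at 10.1, 18.1 and 100 kb, with fold enrichments of 6.55, 5.64 and 11.6. *Slamf7*, a receptor gene of cytotoxic lymphocytes, had 2 members beside each other about 19 kb downstream of its TSS, of which the wider measured 540 bp and reached a fold enrichment of 8.76 and the other 3.14. *Klrk1*, the gene of the activating receptor NKG2D, had a member 3.68 kb upstream of its TSS (fold enrichment 7.42). *Klrc1*, of the inhibitory receptor NKG2A, had 1 at 18.6 kb, inside the neighbouring gene *Klri1* (6.33). None of the 12 was at a promoter, 9 were intergenic and 3 intronic. The genes of the granzymes, perforin and interferon gamma were on the list and had no member.

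The naive and egress list had 14 members (1.37%, 0.816 to 2.28, against 0.795% of all SP8 peaks) at 9 of 20 genes. *Satb1*, a chromatin organiser of thymocytes, had 3, *Bcl2*, *Itgb7* and *Ets1* 2 each, and *Itgae*, *Dapl1*, *Ly6c1*, *Foxo1* and *Bach2* 1 each. The highest was 29.0 kb from *Dapl1* (fold enrichment 13.5). *Itgae* and *Itgb7* encode the chains of the CD103 integrin, which mature CD8 thymocytes carry. The *Itgae* member, in an intron of *Ncbp3*, had a fold enrichment of 8.73 and was 70.5% repeat-masked, and those of *Itgb7* had 4.28 and 3.10. The share of this list was 1.31% of narrower SP8-only, 1.01% of broad SP4-only and 1.24% of broad DP-only peaks.

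The list of genes that respond to selection signals had 10 members (0.977%, 0.531 to 1.79, against 0.510% of all SP8 peaks). The count was 5 by gene body or within 50 kb. The 10 by nearest TSS were at *Btg1*, *Id2*, *Jun*, *Btg2*, *Dusp2*, *Fos* and *Nr4a3*. Several were remote, such as those of *Id2* at 90.2 and 642 kb (fold enrichments 5.54 and 9.17). Shares of all SP8 peaks, here and below, are by nearest TSS and do not apply to counts by gene body. The cytokine receptor and STAT list had 6 (0.586%, 0.269 to 1.27, against 0.447%), at *Stat5b*, *Tgfbr2*, *Il12rb2* and *Il18rap*. The share of all SP8 peaks lay inside this interval. By gene body or within 50 kb the list had 10. The *Il12rb2* member, in an intron of this IL-12 receptor gene, had a fold enrichment of 8.29.

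Genes of the CD4 helper lineage were nearest to 8 members (0.781%, 0.396 to 1.53). The shares were 0.506% of all SP8 peaks and 1.11% of broad SP4-only peaks. By gene body or within 50 kb the count was 4. The 8 were at *Ikzf2*, *Maf* and *Gata3* with 2 each and at *Cd28* and *Cxcr5* with 1 each. The 2 at *Ikzf2*, which encodes Helios, lay 16.3 and 31.6 kb upstream with fold enrichments of 5.24 and 10.4. The 2 at *Gata3* lay 244 kb away, within 1 kb of each other. The T cell receptor signalling list had 5 members (0.488%, 0.209 to 1.14, against 0.673%). Among them were members in introns of *Cd247* (fold enrichment 5.86) and *Fyn* (3.60). By gene body or within 50 kb the count was 12, to which the share of 0.673% does not apply. The early DN list had 4 (0.391%, against 0.262%), at *Kit*, *Flt3*, *Notch1* and *Hes1*, of which the *Kit* member, in an intron, had a fold enrichment of 12.004.

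Of the lists that mark other cells, the natural killer and innate lymphoid list had 2 members, at *Il1rl1* and *Klre1*, with fold enrichments of 3.71 and 3.11. The 2 were 0.195% of members (0.0536 to 0.709), against 0.0776% of all SP8 peaks, a share inside that interval. Counted by gene body or within 50 kb the list had 4. The interferon-stimulated list had 1, near *Ddx58*, and its share of 0.0977% was that of all SP8 peaks. The B cell, myeloid, gamma delta T cell, thymic epithelial and neuronal lists had 0 of 1024 each, which allows a share of up to 0.293%. These lists were nearest to 0.0441%, 0.0594%, 0.0623%, 0.0508% and 0.0421% of all SP8 peaks, all below that limit, so a difference was not detectable with this number of members. Of the gamma delta list 6 of 10 genes could be a nearest protein-coding gene, since the other 4 were not among the protein-coding genes used.

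The DNA around the summits was searched for 18 consensus sequences, matched exactly on either strand in 200 bp windows. A match describes letters and not binding. The letters were TGTGGT for RUNX and ACAGGAAG for ETS factors. For TCF7/LEF1 they were CTTTGAT. The E-boxes were CAGCTG and also CAGGTG. The consensus of the GATA factors was AGATAA and EGR was GCGTGGG. KLF was GGGTGTG and T-box was GGTGTGA. AP-1 was TGANTCA and NFAT was TGGAAA. NF-kB was GGGANTTTC and IRF was GAAANTGAA. STAT was TTCNNNGAA and CTCF was CAGNNGGCG. MAF was TGCTGAC and PKNOX/MEIS was TGACAG. SOX was AACAAT.

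RUNX was the most frequent, in 372 of 1024 members (36.3%, 33.4 to 39.3), against 23.8% of all SP8 peaks. The share was 24.2% of narrower SP8-only peaks, 15.8% of broad SP4-only, 14.7% of broad DP-only and 40.6% of broad DN-only peaks. Among members the share was higher in taller peaks. With the 1024 split at the quartiles of fold enrichment into sets of 256, it was 26.2% in the lowest set (21.2 to 31.9), then 32.4% and 39.8%, and 46.9% in the highest (40.9 to 53.0). In the broad SP4-only list the same split gave 15.4%, 16.5%, 16.5% and 14.6%, and in the DP-only list 12.9%, 15.2%, 16.6% and 14.2%. In the broad DN-only list the share also went up with height, from 31.3% to 50%. The split by height was added after the values were seen and carries no test.

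A set of other consensus sequences was also more frequent in members than in all SP8 peaks, with the share of all SP8 peaks outside the members' interval. AP-1 was in 11.6% (9.80 to 13.7) against 7.31%, and KLF in 11.0% (9.26 to 13.1) against 7.05%. The corresponding values were 7.71% and 5.90% for SOX, 7.13% and 5.32% for STAT, and 5.76% and 4.09% for TCF7/LEF1. For SOX and STAT this depended on the windows searched. In whole peaks the share of all SP8 peaks lay inside the members' interval for both (8.55% in 8.01 to 11.6 for SOX, 7.93% in 7.56 to 11.1 for STAT). AP-1 was in 7.42% of the lowest and 16.4% of the highest set by fold enrichment, and KLF in 8.59% and 11.7%. KLF and RUNX matches overlapped in 19 members, and KLF and T-box matches in 17. Broad SP4-only peaks had AP-1 in 9.18%, KLF in 6.25%, SOX in 8.41%, STAT in 6.97% and TCF7/LEF1 in 8.08% of 200 bp windows. Narrower SP8-only peaks had 8.6%, 8.42%, 7.52%, 5.16% and 4.25% in the same order. SOX and TCF7/LEF1 were thus more frequent in broad SP4-only peaks than in members.

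4 consensus sequences were less frequent in members than in all SP8 peaks. CTCF was in 1.56% (0.964 to 2.52) against 5.07% of all SP8 peaks, and ETS in 4.69% (3.55 to 6.16) against 8.48%. CTCF was also low in broad SP4-only (0.769%), DP-only (1.41%) and DN-only (2.80%) and narrower SP8-only peaks (2.04%). ETS was in 4.75% of narrower SP8-only peaks, 9.47% of broad SP4-only, 7.69% of DP-only and 6.02% of DN-only peaks. The E-box CAGGTG was in 12.1% of members (10.2 to 14.2) against 19.02% of all SP8 peaks, 38.3% of broad DP-only and 33.5% of broad DN-only peaks. It was in 11.4% of broad SP4-only and 14.9% of narrower SP8-only peaks. The E-box CAGCTG was in 8.89% of members against 14.7% of all SP8 peaks. The share was 7.74% of broad SP4-only, 10.05% of narrower SP8-only, 24.05% of broad DP-only and 27.8% of broad DN-only peaks. Low E-box shares were thus also found in broad SP4-only peaks. GATA was in 8.50% of members and 17.3% of broad SP4-only peaks. The share of all SP8 peaks lay inside the members' interval for GATA and the other 7 consensus sequences, among them T-box (4.49% against 3.53%). Without peaks at promoters the shares were 36.7% against 26.3% for RUNX, 1.33% against 3.98% for CTCF and 4.72% against 9.32% for ETS.

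**Figure D5:**
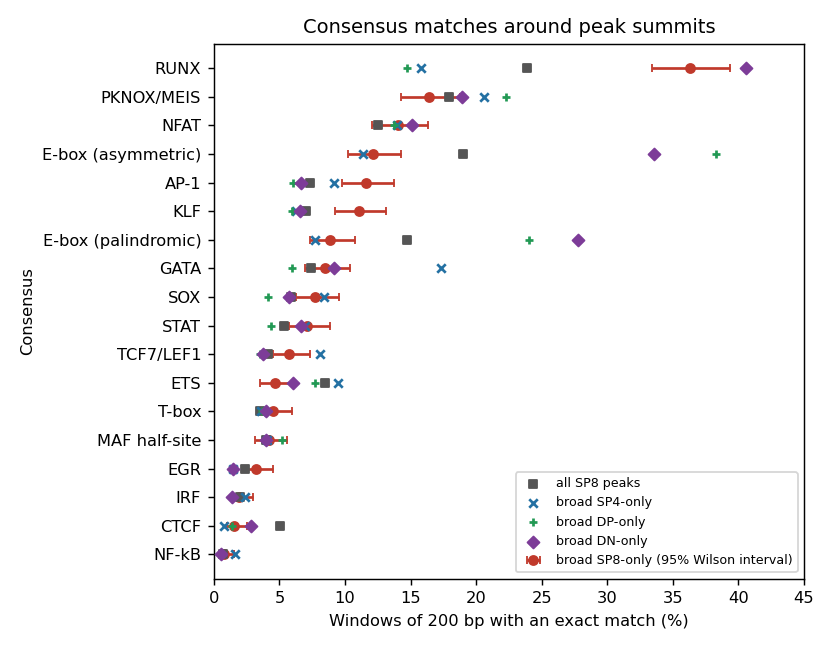
Share of 200 bp windows with an exact match (x axis, %) to each of 18 consensus sequences (y axis) in broad SP8-only peaks, with 95% Wilson intervals, in all SP8 peaks and in the broad single-stage peaks of the other lists. RUNX stands at 36.3% in broad SP8-only peaks, between 15.8% in SP4-only and 40.6% in DN-only peaks. The asymmetric E-box is lower (12.1%) than in DP-only peaks (38.3%) and near its share in SP4-only peaks (11.4%).

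In base composition the members had a median GC content of 49.3%, against 51.5% for all SP8 peaks and 46.2% for broad SP4-only peaks. Of the 1024, 100 (9.77%) were over 50% repeat-masked in the reference, a share that was 5.69% in all SP8 peaks, 7.40% in broad SP4-only and 2.71% in broad SP8 peaks called at every stage. The 100 had a median fold enrichment of 4.76 and the other 924 of 4.38. None of the 12 members highest by −log10 q and none of the 12 of the CD8 and cytotoxic list was masked over 50%. The part of repeats or of base composition in the motif shares was not tested.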

How the data were processed

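ATAC-seq libraries of DN, DP, SP4 and SP8 thymocytes came from 4 mice per stage. After adapter trimming, the authors mapped reads to mm10 by BWA, marked duplicates with Picard and dropped them, thinned every library to the median depth, merged the mice of a stage and ran MACS2 for narrow peaks at 5% FDR. Versions are not given in the sources used here. The fold enrichment of each peak, a ratio to the local background, is as the authors deposited it. Its −log10 q-value is from the same deposited lists. Pooling hides differences between mice, and a region without a peak may hold signal below the threshold.

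TSSs and exons were those of GENCODE M21 and RefSeq (249203 transcripts, GRCm38), and the nearest gene was the GENCODE protein-coding gene with the nearest TSS. Sequences were read from the RefSeq GRCm38 assembly, whose chromosome lengths hold every peak. Coordinates count from 1. An overlap was 1 bp or more. Distances were compared with Kolmogorov-Smirnov tests (scipy 1.17.1, Python 3.11.15). The code was tested on simulated lists. Named were the 12 members highest by −log10 q, the widest 3, the 5 highest over a protein-coding TSS, the 2 farthest from a TSS and all of the CD8 and cytotoxic list, the 12 genes with most members, list genes with 2 or more, and the 6 largest runs. Other members of the lists were named after their values were seen. The members and the lists were chosen with earlier results of these data known. Alternatives were other widths, distances, transcripts, q-values and windows.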

Additional observations from a re-analysis of the deposited data

How the results depend on the processing

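No paired analysis was possible because peaks were called on the pooled reads of the 4 mice, and for the same reason no mouse could be left out. The number of members depended on the rule. It was 2494 at a minimum width of 150 bp, 7831 at 100 bp (added after the data were seen, the narrowest peak being 100 bp), 271 at 300 bp, 557 with no peak of another stage within 1 kb, and 1716 when each list was cut to its 104411 peaks highest by −log10 q. The median TSS distance was 16752 bp with protein-coding transcripts alone and 7912 bp for members with no other peak within 1 kb. For these isolated members (n = 557) the Kolmogorov-Smirnov statistic was 0.102 against narrower SP8-only (adjusted p = 0.000201), 0.111 against broad DN-only (adjusted p = 1.91e-05) and 0.0321 against broad SP4-only peaks (adjusted p = 1), the first 2 now past the threshold and the last no longer. With protein-coding transcripts alone (n = 1024) it was 0.0979 against broad DP-only peaks (adjusted p = 0.000222) and 0.0788 against broad DN-only peaks, where the order of the medians reversed (adjusted p = 7.56e-05). For the isolated members, the lists they were compared with were not filtered for isolation. The cause of these changes was not tested. The promoter share was 9.67% with promoters of 1000 bp, 3.32% by the summit and 2.64% with protein-coding transcripts. The share with another member nearby was 8.59% within 10 kb, 34.0% within 100 kb and 19.1% when members under 1 kb apart were counted once. The share near a peak of another stage was 29.2% at the smaller limit tried, 0.5 kb, and 84.0% within 5 kb. By gene body or 50 kb the CD8 and cytotoxic list had 15 members, but the CD4 helper list went from 8 to 4, T cell receptor signalling from 5 to 12, selection response from 10 to 5, cytokine receptor and STAT from 6 to 10, natural killer from 2 to 4 and the neuronal control from 0 to 1. The shares of all SP8 peaks given above are by nearest TSS and do not apply to the counts by gene body or 50 kb. At a q-value of 0.001 or less the CD8 list had 12. Without the members over 50% repeat-masked, an alternative added later, no call on distance changed. No consensus whose all-peak share lay outside the members' interval changed direction in 100 bp windows, whole peaks or outside promoters, but that share came to lie inside the interval for STAT at 100 bp (2.08% in 2.06 to 4.15), for STAT and SOX in whole peaks and for SOX outside promoters (6.50% in 6.27 to 9.65). It came to lie below the interval for GATA at 100 bp (3.05%, 3.30 to 5.83) and for EGR outside promoters (1.82%, 2.16 to 4.36). At 100 bp the difference went from 12.5 to 7.83 percentage points for RUNX, 4.31 to 2.25 for AP-1, 3.99 to 1.99 for KLF and -3.51 to -1.14 for CTCF. The depth of the pooled reads sets which weak peaks pass at a stage, so an SP8-only peak is one called in that list alone.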
